A study of Mus musculus with 16 samples.

Results

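Lumbar spinal cords of 4 mice labelled Atg7 cWT with SOD1G93A were compared with those of 4 mice labelled Atg7 cWT, all aged 150 days. These are 8 of the 16 RNA sequencing libraries of the series, chosen by their genotype labels, and they are called cWT_SOD1 and cWT below. Atg7, which encodes an enzyme needed to form autophagosomes, is labelled cWT in both groups, read here as the wild-type form of a conditional allele. SOD1G93A is a mutant form of the human gene for superoxide dismutase 1, carried by mice as a transgene, and it is the only labelled difference between the groups. The other 8 libraries came from mice labelled Atg7 cKO, 4 with and 4 without SOD1G93A, and the title of the series places the inhibition of autophagy in motor neurons. The labels used here name neither a Cre driver nor the promoter or copy number of the transgene, and they do not say whether cWT mice carry Cre or floxed alleles. The design text counts the 4 libraries of a group as biological replicates.

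Mutant SOD1 damages motor neurons, the large cholinergic cells of the ventral horn whose axons drive the muscles of the limbs. As these cells and their axons degenerate, astrocytes enlarge and build up intermediate filaments, and microglia, the resident macrophages of the cord, proliferate and clear debris through their lysosomes. RNA of a whole cord mixes all of these cells, so fewer cells of a type and less RNA per cell cannot be told apart.

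Library totals ran from 14989026 to 19873646 counts, and 15426 of 23284 gene symbols had enough counts to be tested over the 16 libraries. Values are CPM, the count of a gene scaled to a common library size by the trimmed-mean method (TMM), given per library in the order of replicates 1 to 4 or as mean ± SD (n = 4). Fold changes, their standard errors (SE) and adjusted p come from edgeR's quasi-likelihood test, and a gene was called at an adjusted p under 0.05. Each group held 2 males and 2 females by Xist and Y-linked counts. A fit within 1 sex thus compares 2 libraries with 2, and a call lost there can come from the smaller number. Counts of genes that rose or fell, here and below, are of genes called. Replicate 1 of cWT_SOD1 stood apart from replicates 2 and 3, at a mean chi-square per gene of 37.6 and 40.8, and from replicate 4 at 15.5, while the other cWT_SOD1 pairs differed at 6.93 to 18.3 and pairs of cWT libraries at 4.07 to 11.6. It was the transgenic library nearest to cWT in most gene groups. Atg7 (chromosome 6, 114593119 to 114810632, mm9) read 35.1, 29.7, 29.9 and 31 CPM in cWT and 30.3, 23.1, 22.1 and 20.8 CPM in cWT_SOD1. Replicate 1 of cWT_SOD1 lay within the cWT range and the other 3 below it (log2 fold change −0.38, SE 0.12, adjusted p = 0.00839), but Atg7 did not pass within males (adjusted p = 0.215) or on FPKM without a filter (adjusted p = 0.0596). Mouse Sod1 (chromosome 16, 90220987 to 90226569) read 109, 122, 124 and 129 CPM in cWT and 112, 106, 112 and 126 CPM in cWT_SOD1. The groups overlapped (log2 fold change −0.086, SE 0.061, adjusted p = 0.222), and the human transcript was not analysed here, so neither gene checks the SOD1G93A label.

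The tissue label was checked against markers. Hoxc10 and Hoxd10, homeobox genes of the lumbar segments, were present at 85.9 ± 1.54 to 47.6 ± 10.5 CPM and 36.6 ± 4.16 to 20.6 ± 3.14 CPM. Markers of sensory ganglion neurons summed to 115 to 143 CPM in cWT and 59.1 to 77.2 CPM in cWT_SOD1, and 5 of 7 tested fell (3 in males alone), of which motor neurons share Prph and Isl1, while Avil, which encodes the actin-binding advillin, rose from 0.249 ± 0.167 to 0.886 ± 0.197 CPM. Skeletal muscle markers summed to 3.94 to 4.81 CPM in cWT and 5.24 to 6.27 CPM in cWT_SOD1. Of 7 erythroid genes, 4 globin genes had 0 counts in all 8 libraries, as had other near-identical copies in this count table. Of 12 Schwann cell and root genes 6 rose and 1 fell (3 rose in males alone), with 58.3% called against 66.3% of all genes. Their part in the results was not tested.

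Most of the transcriptome differed between the groups. Of the 15426 genes, 10221 (66.3%) were called, 5122 higher (33.2%) and 5099 lower (33.1%), and in 8728 genes (56.6%) the CPM of the 2 groups did not overlap. The median size of the change was 1.29-fold, and the median signed change 0.0088 on the log2 scale. TMM scaling holds the bulk of changes near 0, so it largely sets this median and the balance of calls. On FPKM 55.5% to 56.3% of calls were higher. All changes are relative to the scaling, so small shifts of a list cannot be read as changes in RNA per cord. The 2 directions differed in shape. Among called genes 1721 rose (11.2% of those tested) and 646 fell (4.19%) by over 2-fold, 718 and 35 by over 4-fold, 312 and 3 by over 8-fold, and 118 and 0 by over 16-fold. Genes called higher took 20.1% ± 0.0561 of all counts in cWT and 37.4% ± 3.82 in cWT_SOD1, and genes called lower 59.7% ± 0.0958 and 41.7% ± 3.79. Direction went with abundance. Of 1057 genes with a mean under 1 CPM over the 16 libraries, 331 rose and 110 fell, while of 2401 genes over 100 CPM, 539 rose and 1426 fell. A scarce gene can pass the filter through the cWT_SOD1 libraries alone, which favours rises in the lowest class. The part this plays was not tested. Genes were less even within the transgenic group, with a median SD of log2 CPM of 0.145 against 0.103 in cWT. The spread shared by the fit also takes in cKO and cKO_SOD1, at 0.087 and 0.093, so it can understate that of cWT_SOD1. Against the 10221 genes, 9308 were called with limma-voom weighted by group and 9409 with the 8 libraries alone.

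**Figure D1:**
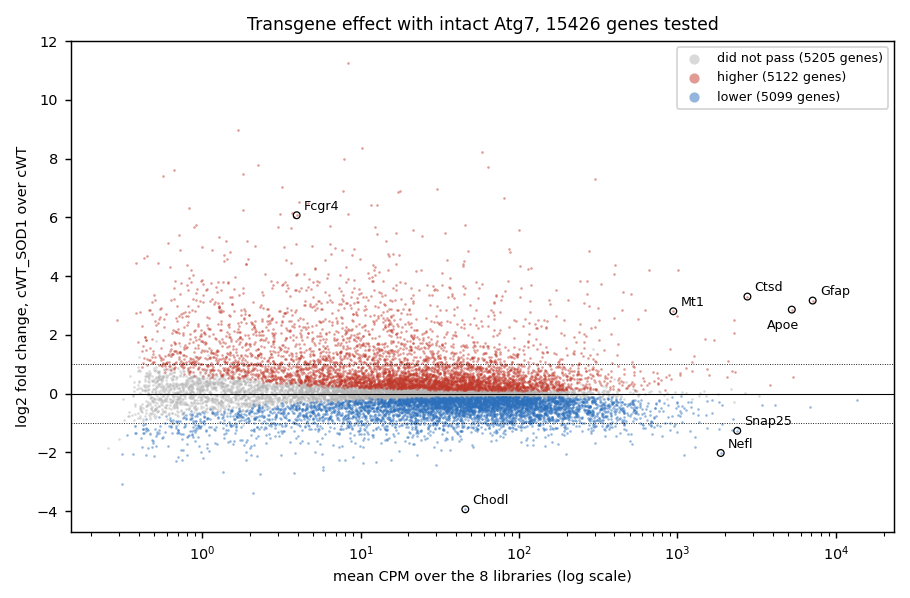
Each point is 1 of the 15426 genes tested, at its mean CPM over the 8 libraries (log scale, horizontal) and its fitted log2 fold change, cWT_SOD1 over cWT (vertical), with dotted lines at 2-fold. The 5122 genes called higher (red) reach further from 0 than the 5099 called lower (blue), and at the right the abundant genes that fell, such as Nefl and Snap25, lie below Gfap, Apoe and Ctsd. The fitted change of a gene with 0 counts in cWT is no measure of its size.

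Per transcript length, the 12 largest gains in abundance included genes of astrocytes, microglia and metal binding. The rule took called genes whose groups did not overlap in FPKM. Apoe, the main lipid carrier made by glia, gained most, at 1194, 1204, 1139 and 1265 FPKM in cWT and 5363, 11857, 11260 and 7134 FPKM in cWT_SOD1. Its 4 transgenic libraries, at 5402, 12412, 11741 and 7473 CPM, were unequal but all above the cWT range of 1206 to 1360.3 CPM (log2 fold change 2.86, SE 0.17, adjusted p = 8.54e-10). Gfap, the intermediate filament of astrocytes, went from 558 ± 43.6 to 5133 ± 419 FPKM, and the metal-binding metallothioneins Mt1 and Mt2 from 697 ± 57.8 to 5032 ± 1478 FPKM and 453 ± 62.4 to 3457 ± 862 FPKM. The lysosomal protease Ctsd went from 284 ± 14 to 2886 ± 714 FPKM. Fth1, the heavy chain of the iron store ferritin, went from 6482 ± 279 to 9752 ± 1944 FPKM. On counts its replicate 1 of cWT_SOD1 lay inside the cWT range, at 4466 against 4093 to 4555 CPM, and the call (log2 fold change 0.55, SE 0.12, adjusted p = 6.89e-04) was lost in males alone (adjusted p = 0.115). Cst3, which encodes the protease inhibitor cystatin C, the actin-binding Tmsb4x, the lipid carriers Apod and Clu, the protease inhibitor Serpina3n and the translation factor Eef1a1 made up the 12 largest gains, with rises of 2.42-fold, 2.84-fold, 5.66-fold, 3.6-fold, 18.6-fold and 2.09-fold on counts.

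Under the same rule the largest losses included genes of large neurons and their synapses. Nefl, the light neurofilament chain, went from 1574 ± 62.4 to 398 ± 124 FPKM, with 3044, 3116, 2846 and 3027 CPM in cWT and 984, 578, 538 and 862 CPM in cWT_SOD1. No transgenic library came near the cWT range, and replicates 2 and 3 were lowest (log2 fold change −2.02, SE 0.14, adjusted p = 2.00e-09). Snap25, a membrane fusion protein of the synapse, went from 1728 ± 81.2 to 742 ± 217 FPKM and fell 2.4-fold on counts. Atp1b1, a subunit of the sodium pump, fell 2.26-fold, and Vamp1 and Cplx1, which act in vesicle fusion, 2.77-fold and 2.46-fold. Calm2 and Calm3, 2 of the genes for calmodulin, fell 1.74-fold and 1.95-fold, Ndrg4 fell 2.41-fold, and the other filament chains Nefm and Nefh are given below.

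**Figure D2:**
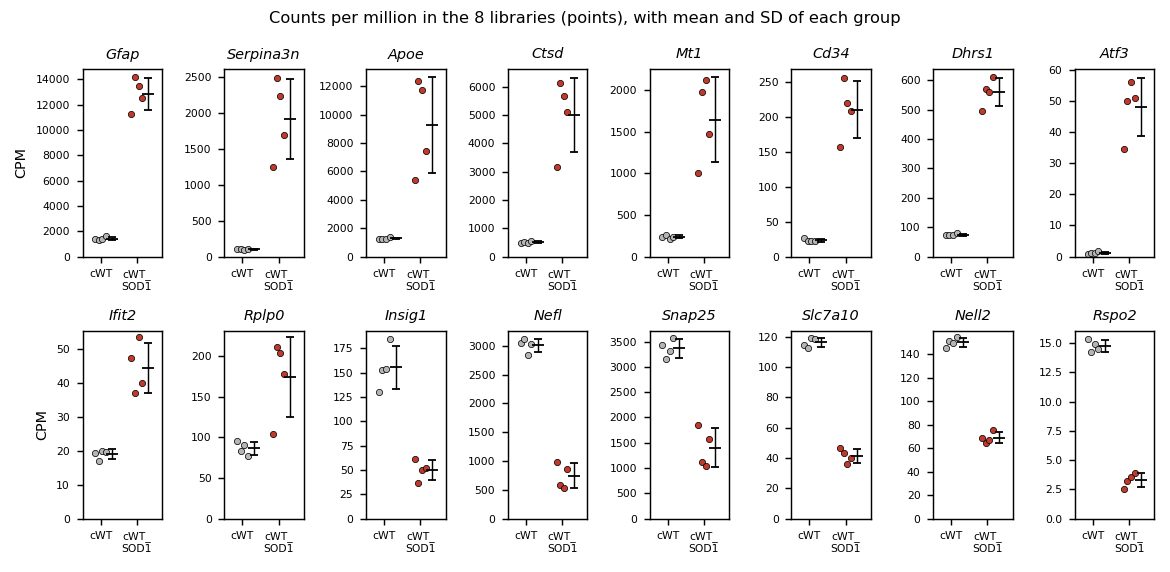
Panels give CPM (vertical, from 0) of 16 genes in the 4 cWT and 4 cWT_SOD1 libraries, as points in the order of replicates 1 to 4, with the mean and SD of each group beside them. Gfap and Dhrs1 show 4 tight transgenic values far above cWT, while in Apoe, Ctsd and Serpina3n the first transgenic library is the lowest, and in Nefl replicates 2 and 3 are the lowest.

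By the size of the change relative to its error, the clearest rises ranged from 2.34-fold to 117-fold. Dhrs1, a short-chain dehydrogenase (chromosome 14, 56357857 to 56364521), had the smallest p of all genes, at 72.2, 73, 73.2 and 79.6 CPM in cWT and 497, 570.2, 560.4 and 611 CPM in cWT_SOD1 (log2 fold change 2.91, SE 0.067, adjusted p = 3.33e-14). Its transgenic libraries lay 7.51-fold above cWT with no library out of line. Add3, which encodes adducin 3 of the membrane skeleton, changed by only 2.34-fold but with an SE of 0.041, from 162, 159.8, 162 and 167 to 370.2, 388, 398 and 368 CPM. Slc14a1, a urea transporter of astrocytes, rose 4.75-fold, Plscr2, a phospholipid scramblase, 5.87-fold, and Tgm1, a transglutaminase, 117-fold from a level under 0.5 CPM. Casp12, an inflammatory caspase, read 3.84, 4.17, 4.06 and 3.88 CPM in cWT and 39, 38.7, 40.9 and 32.2 CPM in cWT_SOD1, a 9.46-fold rise with no overlap. Cd34, a surface sialomucin of vessels and of activated microglia, rose 8.98-fold, from 23.4 ± 1.82 to 209.9 ± 41 CPM.

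The clearest falls beside Chodl and Mmp9, markers of fast motor neurons, took in neuronal and astrocyte genes. Nell2, a secreted protein of neurons (chromosome 15, 95049881 to 95359137), read 145, 151, 149.6 and 155 CPM in cWT and 68.5, 63.9, 67.2 and 75.2 CPM in cWT_SOD1 (log2 fold change −1.13, SE 0.047, adjusted p = 7.01e-12). Both groups were even, and the transgenic libraries all lay well below the lowest cWT value. Rspo2, a Wnt activator that motor neurons secrete, went from 14.7 ± 0.495 to 3.28 ± 0.588 CPM, a 4.49-fold fall, and Tesc, the calcium-binding tescalcin, fell 3.88-fold, from 27.7 ± 0.837 to 7.16 ± 1.23 CPM. Slc10a4, a vesicle protein of cholinergic and monoaminergic neurons, fell 4.28-fold and the potassium channel subunit Kcng4 2.86-fold. Polr3g, a subunit of RNA polymerase III, fell 2.61-fold, from 23.7, 23.8, 22.4 and 22.2 to 9.23, 9.05, 8.27 and 8.75 CPM.

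Motor neuron genes fell. Of 16 tested, 14 fell and the others rose, and the median change was −1.74 on the log2 scale, beside 33.1% lower, 33.2% higher and a median of 0.0088 over all genes tested. The transcription factor Isl2, which these neurons keep into adulthood, went from 3.59 ± 0.721 to 0.83 ± 0.232 CPM, 4.32-fold lower, and Isl1 fell 1.8-fold, a call lost in females alone (adjusted p = 0.0577). Calcb, a calcitonin gene-related peptide of motor and sensory neurons, fell 3.48-fold, and Ret, the receptor for glial cell line-derived neurotrophic factors, 1.33-fold. Anxa4, a calcium-dependent membrane-binding protein, rose from 13.4 ± 1.54 to 43.1 ± 7.01 CPM, and the kinase gene Stk32a from 79.7 ± 7.58 to 109.6 ± 24.9 CPM. The rise of Stk32a (adjusted p = 0.0207) lost its call without any 1 of cWT replicates 3 and 4 or cWT_SOD1 replicates 2 and 3 (log2 fold change 0.40 to 0.43), in males alone and with limma-voom weighted by group. Genes used to mark slow or gamma motor neurons were split, with 3 of 7 lower and 2 higher, and 71.4% called against 66.3% of all genes. Esrrg and Esrrb, nuclear receptors of gamma motor neurons and other cells, fell 2.52-fold and 2.4-fold, while Gfra1, a co-receptor of Ret, rose from 75.5 ± 4.37 to 128 ± 6.14 CPM and Npnt, the matrix protein nephronectin, from 4.11 ± 0.717 to 15.2 ± 2.78 CPM.

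All 5 neurofilament chains fell, which together with microtubules fill large axons. Nefh, the heavy chain, read 1802, 1865, 1710.4 and 1711 CPM in cWT and 536, 306, 302 and 522 CPM in cWT_SOD1 (log2 fold change −2.09, SE 0.15, adjusted p = 3.02e-09), and Nefm 2085, 2091, 1940.3 and 1957 CPM in cWT and 770.1, 413, 451 and 657 CPM in cWT_SOD1 (log2 fold change −1.82, SE 0.14, adjusted p = 6.61e-09). In both, the transgenic libraries fell into 2 lower (replicates 2 and 3) and 2 higher values, none near cWT. Ina, which encodes alpha-internexin, fell 2.58-fold and Prph, the peripherin of motor and sensory neurons, 2.01-fold. Of 26 genes of axonal transport and microtubules, 23 fell and 1 rose, with a median of −0.67. Tuba4a, an alpha tubulin, fell 2.54-fold, Klc2, a kinesin light chain, 2.37-fold, and Mtap1b, a microtubule-associated protein, 2.34-fold. Dync1i2, a dynein intermediate chain, was the member that rose, by 1.09-fold, and was not called within either sex (adjusted p = 0.269 in females and 0.0744 in males).

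Genes of transmitter release fell in 18 of 20 cases and none rose, with a median of −1.05. Isoforms differed. Vamp1, the vesicle fusion protein of large fast synapses, went from 1883 ± 95 to 679.9 ± 180.1 CPM, while Vamp2, its counterpart in most forebrain synapses, went from 303 ± 12.3 to 281 ± 10.2 CPM (log2 fold change −0.11, adjusted p = 0.052). Vamp2 passed the test with DESeq2 and without any 1 of cKO replicate 2, cWT replicate 1 and cWT_SOD1 replicate 1, at log2 fold changes of −0.10 to −0.13. Syt2, the calcium sensor of fast release, fell 3.23-fold, and Syt1 1.33-fold. Of the vesicle glycoproteins, Sv2b fell 3.41-fold, Sv2c 3.27-fold and Sv2a, also used as a marker of slow motor neurons, from 586 ± 11.4 to 369.8 ± 56.5 CPM. The difference between isoforms was not tested.

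Genes of inhibitory transmission fell. Of 22 glycine and GABA genes, 20 fell and 1 rose. Slc6a5, the glycine transporter of inhibitory terminals (chromosome 7, 57165669 to 57214863), read 251, 258, 245 and 232 CPM in cWT and 113, 63.3, 49.2 and 89.3 CPM in cWT_SOD1 (log2 fold change −1.65, SE 0.16, adjusted p = 1.12e-07), without overlap. Slc32a1, the vesicular transporter of both transmitters, fell 2.24-fold, and Gabrb2, a GABA receptor subunit, 2.34-fold. Gabrb1, a subunit also found in astrocytes, rose from 24.2 ± 3.06 to 32.9 ± 6.63 CPM, a call lost in males (adjusted p = 0.0692). Of 16 glutamate receptor genes, 13 fell and none rose. Grin3b, the NMDA receptor subunit enriched in motor neurons, fell 4.83-fold, from 12.1 ± 1.5 to 2.52 ± 0.614 CPM, Grin2b 2.33-fold and Grin1, the subunit common to NMDA receptors, 2.1-fold. Among AMPA receptor subunits Gria2 fell 1.22-fold, and Gria1, at a log2 fold change of −0.11 (adjusted p = 0.143), passed only without cWT replicate 1 (−0.15 (adjusted p = 0.0498)).

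Potassium channel genes fell in 26 of 35 cases, with a median of −0.68, and 4 rose. Kcnj14, an inward rectifier of motor neurons, went from 25.6 ± 2.9 to 5.31 ± 0.958 CPM, a 4.83-fold fall, and the leak channel Kcnk9 fell 3.79-fold. Kcnk6, a leak channel, rose 4.97-fold and Kcns1, a modifying subunit, 3.36-fold, from 7.87 ± 0.237 to 26.4 ± 5.95 CPM. The calcium-activated channels Kcnn4, present in microglia, and Kcnn3 rose 2.68-fold and 1.31-fold, the former from under 1 CPM and not called in males alone (adjusted p = 0.0637). Of 30 sodium and calcium channel genes, 22 fell and 1 rose. Scn4b, Scn8a and Scn1a, the sodium channels of fast-firing neurons and their nodes, fell 3.09-fold, 2.69-fold and 2.55-fold. Cacna2d4, a calcium channel subunit, rose from 1.81 ± 0.494 to 3.01 ± 0.22 CPM. Its call was lost in females alone, at a log2 fold change of 0.49 (adjusted p = 0.154).

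Spinal neuropeptide genes moved less as a list, with 8 of 23 lower and 3 higher, so that 47.8% were called against 66.3% of all genes. The peptides of motor neurons fell, as for Calcb above and Calca (2.19-fold). Adcyap1, which encodes the peptide PACAP, rose from 29.6 ± 1.33 to 44.4 ± 6.91 CPM, Crh, corticotropin-releasing hormone, from 1.29 ± 0.269 to 3.37 ± 0.608 CPM, and Gal, the peptide galanin, from 6.68 ± 0.537 to 9.71 ± 3.28 CPM. The rise of Gal was not called without cWT_SOD1 replicate 3, at 0.27 (adjusted p = 0.0631), or within either sex.

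Genes of the axon injury response rose in 15 of 19 cases and none fell, with a median of 0.88. Hspb1, a small heat shock protein, read 11.3, 14.7, 8.83 and 9.47 CPM in cWT and 75.9, 168, 259 and 131 CPM in cWT_SOD1 (log2 fold change 3.84, SE 0.28, adjusted p = 5.14e-09). Every transgenic library was over 5 times the highest cWT library. Plaur, the receptor of urokinase, rose 8.83-fold, from 0.903 ± 0.289 to 8.01 ± 1.25 CPM, and the zinc finger factor Klf6 2.27-fold, from 37 ± 0.95 to 84 ± 10.2 CPM. Npy, a peptide of injured sensory neurons, went from 11.8 ± 2.51 to 11.1 ± 2.26 CPM, at a log2 fold change of −0.085 (adjusted p = 0.625). Among activity-dependent immediate early genes 10 of 22 rose and 6 fell, with 72.7% called against 66.3% of all genes. Cyr61, a matricellular growth regulator, rose 17.1-fold and Egr2, a zinc finger factor of myelinating and myeloid cells, 12-fold, Junb 3.07-fold and Fosl2 2.75-fold, both parts of the factor AP-1. The members that fell were the neuronal genes Arc (2.52-fold), Egr4 (3.59-fold), Npas4 (1.99-fold), Nr4a2 (1.47-fold), Bdnf (1.33-fold) and Homer1 (1.19-fold). In males alone 2 members fell in place of 6, Egr4, Nr4a2, Bdnf and Homer1 losing their calls there, and Npas4 and Nr4a2 lost theirs in females.

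**Figure D3:**
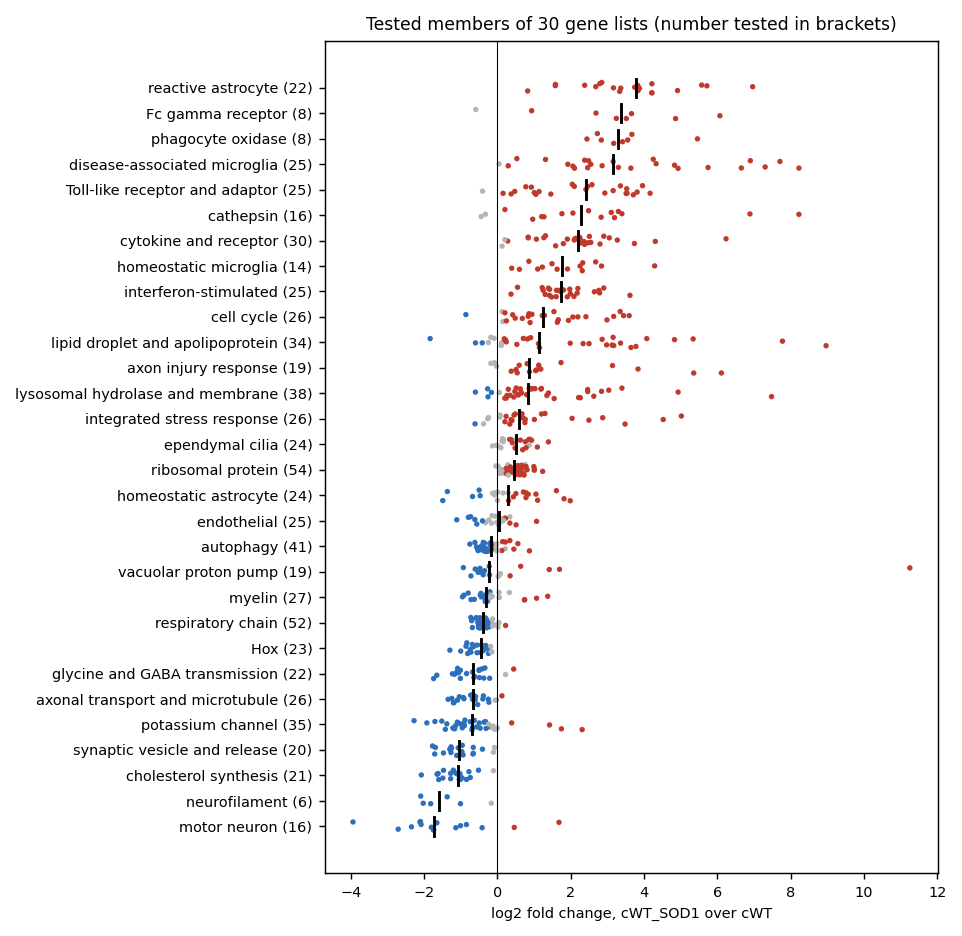
Each point is 1 tested gene of a list, at its fitted log2 fold change, cWT_SOD1 over cWT (horizontal), red where called higher, blue where called lower and grey where not called, and black bars are list medians, with lists ordered by median. Lists of microglia, astrocyte reaction and lysosomal proteases lie right of 0, lists of neurons and cholesterol synthesis left of 0, and the fitted value of Atp6v0d2 (vacuolar proton pump, far right) and Apoc4 (lipid list), which have 0 counts in cWT, has no fixed size.

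Astrocyte genes split by function. All 22 tested genes of the reactive state rose, with a median of 13.7-fold and a summed level of 1813 to 2134 CPM in cWT and 14943 to 20254 CPM in cWT_SOD1. Serpina3n, a secreted protease inhibitor (chromosome 12, 105644918 to 105652539), read 103, 109, 93.4 and 106 CPM in cWT and 1240.2, 2482, 2230 and 1686 CPM in cWT_SOD1 (log2 fold change 4.22, SE 0.15, adjusted p = 5.85e-12), replicate 1 being the lowest transgenic library and still over 10 times the cWT range. Cd109, a regulator of TGF-beta receptors, rose 47.6-fold, from 4.1 ± 0.882 to 195 ± 102 CPM, Ptx3, a secreted pentraxin, 30.2-fold, Timp1, a protease inhibitor, 125-fold and Tnc, the matrix protein tenascin C, 5.21-fold. Stat3, a transcription factor on which the reactive state depends, rose 1.77-fold, from 115 ± 2.14 to 205 ± 5.55 CPM. The iron-oxidising Cp and the annexin partner S100a10 rose 2.99-fold and 3.0-fold.

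Of 24 genes of homeostatic astrocytes, 12 rose and 5 fell, with a median of 0.30 and 70.8% called against 66.3% of all genes. Aqp4, the water channel of astrocyte end-feet, read 686, 684, 850.1 and 796 CPM in cWT and 2795, 2745, 2505 and 2597 CPM in cWT_SOD1 (log2 fold change 1.82, SE 0.079, adjusted p = 1.33e-11), and the spread within groups was small beside the difference. Fabp7, a fatty acid-binding protein of immature glia, rose 3.97-fold, Sox9, the astrocyte transcription factor, 3.05-fold and Aldh1l1, a folate enzyme used as an astrocyte marker, 2.14-fold. The members that fell were transporters of amino acid transmitters, 1 calcium-binding protein and 1 glypican. Slc7a10, the astrocyte carrier of serine and glycine, read 115, 112, 119 and 118 CPM in cWT and 46.3, 43.4, 35.9 and 40.1 CPM in cWT_SOD1 (log2 fold change −1.49, SE 0.077, adjusted p = 7.49e-11). Slc6a11, which takes up GABA, went from 729 ± 40.2 to 283 ± 34.1 CPM (log2 fold change −1.36, SE 0.07, adjusted p = 6.73e-11), and Slc6a9, which takes up glycine, from 330.4 ± 22.8 to 207 ± 9.75 CPM. Neither Slc7a10 nor Slc6a11 overlapped between groups. S100b and Gpc5 fell 1.41-fold and 1.38-fold.

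Myelin genes fell by little. Of 27 tested, 16 fell and 4 rose, with a median of −0.30, and 8 fell in males alone. Ugt8a and Fa2h, enzymes of myelin galactolipids, fell 1.88-fold and 1.65-fold, Ugt8a from 404 ± 28 to 215 ± 63.2 CPM. Nipal4 fell 1.74-fold, not called in males (adjusted p = 0.161). The members that rose were Klk6, a protease of oligodendrocytes (2.59-fold), Slc16a1, the lactate transporter MCT1 (2.1-fold), Trf, the iron carrier transferrin (1.68-fold), and Cldn11, the tight junction protein of myelin (1.67-fold). The scores of the list were −0.043, −0.28, −0.28 and −0.053 in the 4 transgenic libraries on the log2 scale, so replicates 1 and 4 lay near cWT. Of 23 precursor and lineage genes, 12 rose and 2 fell, with 60.9% called against 66.3% of all genes. Vcan and Cspg4, proteoglycans of precursor cells, rose 2.39-fold and 2.38-fold, with Cspg4 also made by pericytes, and Tcf7l2 and Itpr2, which mark differentiating cells, 1.96-fold and 2.21-fold. Enpp6, a marker of newly formed oligodendrocytes, fell 1.3-fold and Olig1 1.16-fold. Enpp6 was not called in males alone, nor Olig1 on FPKM, in females alone, with limma-voom or without any 1 of cWT replicate 1 (adjusted p = 0.0713) and cWT_SOD1 replicates 1, 3 and 4.

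Cholesterol synthesis, much of which serves myelin, fell: 20 of 21 genes fell, none rose and the median was 2.12-fold lower. Insig1, the sterol sensor that is itself a target of the pathway (chromosome 5, 28397952 to 28405202), read 131, 153, 154 and 185 CPM in cWT and 61.1, 36.7, 49.4 and 51.9 CPM in cWT_SOD1 (log2 fold change −1.64, SE 0.14, adjusted p = 3.18e-08). Every transgenic library lay below every cWT library, replicate 1 being the highest of the transgenic group. Fdps and Idi1, enzymes of the isoprenoid steps, fell 3.06-fold and 3.03-fold. Ebp stood at −0.11 (adjusted p = 0.154). Hmgcs1, the synthase that starts the pathway, had 0 counts in all 8 libraries and was not tested.

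Genes of vessels, meninges and ependyma were mixed. Of 25 endothelial genes 4 rose and 6 fell, so that 40.00% were called against 66.3% of all genes. Kdr, the main VEGF receptor, fell 2.16-fold, from 11.4 ± 1.3 to 5.31 ± 1.97 CPM, and Tfrc, the transferrin receptor of brain vessels, 1.53-fold. The count of higher members was 2 without cWT replicate 4 or without cWT_SOD1 replicate 3 and 7 without cWT_SOD1 replicate 1. Of 8 genes of activated endothelium 5 rose, among them the adhesion molecules Icam1 (7.68-fold, from 2.97 ± 0.787 to 22.8 ± 5.27 CPM) and Vcam1 (2.57-fold), both also made by glia, while Darc, the atypical chemokine receptor of venules, fell 1.97-fold. In males alone 3 rose in place of 5. Of 14 mural cell genes 6 rose and 1 fell, with 50% called against 66.3% of all genes and 42.9% higher against 33.2%. Anpep, an aminopeptidase also of myeloid cells, rose 8.48-fold. Of 13 meningeal and fibroblast genes 8 rose and none fell, so that 61.5% were called, against 66.3% of all genes called and 33.2% higher. Those that rose included the matrix proteoglycans Fmod (6.83-fold, from 29.9 ± 4.33 to 204 ± 66.8 CPM), Lum (4.82-fold) and Dcn (2.97-fold). The summed level of that list was 658 to 836 CPM in cWT and 872 to 1497 CPM in cWT_SOD1. Of 24 genes of ependymal cells and motile cilia 14 rose and none fell (8 in females and 7 in males alone). Thus 58.3% were called, against 66.3% of all genes called and 33.2% higher. Foxj1, the regulator of motile cilia, went from 30.2 ± 2.83 to 30.6 ± 2.06 CPM (log2 fold change 0.021). Mia1, a secreted protein of cartilage and glia, rose 5.56-fold, the chemerin gene Rarres2 2.63-fold and Dnaic2, a dynein chain of cilia, 1.91-fold.

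Markers of blood cells were low. T cell markers other than Thy1, which neurons express, did not reach 3 CPM on average: Cd4, also expressed by microglia, went from 0.208 ± 0.167 to 1.43 ± 0.691 CPM, Il7r from 0.852 ± 0.153 to 2.4 ± 1.31 CPM and Zap70 from 0.736 ± 0.218 to 1.42 ± 0.143 CPM. Of the 7 tested, 5 rose (3 in either sex alone) and Thy1 fell 1.71-fold. The fold of Cd4 rested on few counts, moving from 2.77 to 3.45 on the log2 scale without cWT replicate 2, and Zap70 was not called within either sex. None of 9 natural killer cell genes passed the filter on low counts. Of 3 tested B cell genes, Cd79b rose, from 0.249 ± 0.281 to 1.37 ± 1.05 CPM. Its log2 fold change of 2.45 moved to 3.58 without cWT replicate 4 and to 1.77 without cWT_SOD1 replicate 3, and it was not called in females alone. Of 5 tested neutrophil genes 1 rose, the growth factor receptor Csf3r (9.84-fold), which microglia also express, and without cWT replicate 4 the count was 3. Among monocyte and border macrophage genes 10 of 14 rose (71.4%, against 66.3% of all genes called and 33.2% higher). The mannose receptor Mrc1 rose from 4.76 ± 0.909 to 15.8 ± 3.94 CPM and the hemoglobin scavenger receptor Cd163 from 4.78 ± 0.935 to 12 ± 4.28 CPM, while Ly6c1 stood at 0.068 (adjusted p = 0.622) and Pf4, a chemokine of border macrophages, at 0.32.

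Microglial genes rose. All 14 homeostatic microglia genes tested rose, with a median of 3.41-fold, and 24 of 25 genes of the disease-associated state, with a median of 8.92-fold. P2ry12, the purine receptor of surveying microglia, read 27.5, 25.9, 32.8 and 32.6 CPM in cWT and 47.1, 44.5, 43.4 and 45.6 CPM in cWT_SOD1, a 1.52-fold rise (log2 fold change 0.60, SE 0.10, adjusted p = 5.28e-05). Fcrls, another gene of resting microglia, read 9.47, 10.6, 12.5 and 13.7 CPM in cWT and 147, 295, 219 and 243 CPM in cWT_SOD1, a 19.6-fold rise. Members of the homeostatic list thus ranged from 1.31-fold (Sall1, the microglial identity factor, also of other cells) to 19.6-fold, with Olfml3 at 6.42-fold and Gpr34, a lipid receptor, at 5.02-fold. Of the disease-associated list Ank, a pyrophosphate transporter, was not called (log2 fold change 0.048), although it passed at 0.10 without cWT_SOD1 replicate 3. Fabp5 and Timp2, expressed by many cells, rose 1.45-fold and 1.23-fold, and Csf1, the growth factor of microglia, 2.49-fold, from 55.9 ± 2.36 to 139 ± 2.69 CPM. With replicate 1 of cWT_SOD1 left out, the counts of higher members were again 14 and 24.

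Receptors by which microglia sense antibodies and microbes rose with them. Of 8 Fc receptor genes 7 rose. Fcgr2b, the inhibitory receptor, read 2.92, 2.8, 3.11 and 3.77 CPM in cWT and 84, 115, 105 and 62.1 CPM in cWT_SOD1 (log2 fold change 4.86, SE 0.25, adjusted p = 2.84e-11), and its lowest transgenic value was over 10 times the highest in cWT. Fcer1g, the signalling chain, rose 12.6-fold, Fcgr3 9.49-fold and Fcgr1 6.46-fold, while Fcgrt, which recycles antibodies in many cells, rose 1.91-fold. Fcgr4 went from 0.108 ± 0.0395 to 7.79 ± 2.84 CPM, a 67.2-fold rise. Of 25 Toll-like receptor and adaptor genes 24 rose, with a median of 5.34-fold. Cd180, a relative of the receptor for lipopolysaccharide, rose 18-fold, from 2.34 ± 0.835 to 42.3 ± 6.28 CPM, and Tlr7, a receptor for single-stranded RNA, 13.1-fold. The adaptors, which all cells use, moved by less, with Irak1 at 1.39-fold, Tirap at 1.3-fold and Traf6 at 1.11-fold. The calls of Tirap and Traf6 were lost in each single-sex fit. Tlr5 stood at −0.40 (adjusted p = 0.0746) and passed the test without cWT replicate 3 (−0.52 (adjusted p = 0.0255)) or cWT_SOD1 replicate 3 (−0.53 (adjusted p = 0.0352)).

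Of 20 genes for regulatory receptors of myeloid cells and their ligands, 18 rose. Cd300lb went from 0.11 ± 0.0454 to 7.5 ± 2.57 CPM and Gp49a from 0.0800 ± 0.0667 to 6.15 ± 2.97 CPM. The 2 members that fell are ligands on neurons: Cd200 fell 1.33-fold and Cd47 1.33-fold. The receptor Sirpa, which binds Cd47, rose 1.97-fold, from 183 ± 4.74 to 359 ± 25.3 CPM. The call of Cd200 was lost in males alone (adjusted p = 0.15). All 8 tested genes of the phagocyte oxidase list, which holds 10, rose, with a median of 9.81-fold. Cybb, the catalytic subunit, read 1.49, 1.03, 1.17 and 2.33 CPM in cWT and 41.2, 77, 91.3 and 56 CPM in cWT_SOD1 (log2 fold change 5.46, SE 0.39, adjusted p = 6.24e-10), and its partner Cyba 3.53, 4.17, 4.0 and 5.04 CPM in cWT and 34.1, 68.3, 62.6 and 47.7 CPM in cWT_SOD1 (log2 fold change 3.67, SE 0.19, adjusted p = 6.88e-11). Replicate 1 was the lowest transgenic library for both. The cytosolic subunit Ncf1 rose 7.14-fold, the GTPase Rac2 9.02-fold and the proton channel Hvcn1 5.44-fold. All 5 tested Ms4a genes, of 11 in the count table, rose, with Ms4a6d at 17.5-fold and Ms4a6b at 8.12-fold, and reads of these similar copies may be shared. In both lists, a scarce gene that passed the filter through the transgenic libraries alone could only be seen to rise.

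Secreted signals rose in most cases. Of 30 cytokine and receptor genes 28 rose and none fell, with a median of 4.62-fold. Csf2rb, the shared receptor chain of granulocyte-macrophage growth factors, rose 19.8-fold, from 1.17 ± 0.319 to 23.4 ± 7.79 CPM. The ligands Tnfsf8 and Lif were scarce, going from 0.286 ± 0.0447 to 2.82 ± 0.667 CPM and 0.326 ± 0.169 to 2.76 ± 0.817 CPM. Il33, an alarm cytokine of astrocytes and oligodendrocytes, was more abundant and rose 1.79-fold, from 211 ± 24.5 to 378 ± 52.8 CPM. Tgfb3 (0.20) and Il34, another ligand of the microglial growth factor receptor (0.13), were not called, although Tgfb3 passed in females alone (0.54 (adjusted p = 0.0395)) and Il34 without cWT_SOD1 replicate 1 (0.20 (adjusted p = 0.0362)) and on FPKM. Of its 40 genes, 10 of the list did not pass the filter on low counts, and Ifnb1, the interferon beta gene, had 0 counts in all 8 libraries. Of 25 chemokine and receptor genes 19 rose and 2 fell. Ccl5 and Cxcl10, which attract T cells, rose 36.3-fold and 52.5-fold from under 0.5 CPM. Cx3cl1, the neuronal ligand fractalkine, fell from 253 ± 11.3 to 142 ± 18.8 CPM and Cxcl5 from 0.725 ± 0.318 to 0.241 ± 0.0872 CPM, the latter not called in females alone.

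Antigen presentation rose. All 15 class I genes tested rose, from Psmb10 (1.13-fold, adjusted p = 0.0497), a subunit of the immunoproteasome, to Nlrc5, the class I transactivator, which read 2.0, 1.83, 1.11 and 1.38 CPM in cWT and 8.0, 12.6, 18.4 and 13.1 CPM in cWT_SOD1 (log2 fold change 3.03, SE 0.31, adjusted p = 1.04e-07). No library of one group entered the range of the other for Nlrc5. The call of Psmb10 was lost in many alternatives, DESeq2 (adjusted p = 0.053) among them. Tap2 and Tapbp, which load peptides, rose 1.59-fold and 2.13-fold. Of 10 class II genes 8 rose. The invariant chain Cd74 rose 3.59-fold, from 9.24 ± 4.38 to 33.3 ± 5.42 CPM, H2-Ab1 2.96-fold and Ctss, the protease that trims the invariant chain, 10.5-fold, from 88 ± 11.2 to 927 ± 221 CPM. Ciita, the class II transactivator, stood at −0.22 (adjusted p = 0.45), and on unfiltered log2(FPKM + 0.1) it was higher, at 0.50 (adjusted p = 0.0464). H2 genes have near-identical copies that can share reads.

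All 25 interferon-stimulated genes rose, with a median of 3.32-fold. Ifit2, an RNA-binding antiviral protein, read 19.3, 17, 20.1 and 19.7 CPM in cWT and 47.4, 36.9, 53.4 and 39.9 CPM in cWT_SOD1, a 2.34-fold rise (log2 fold change 1.22, SE 0.11, adjusted p = 3.61e-08). Oas1a, a sensor of double-stranded RNA (chromosome 5, 121346266 to 121357534), went from 0.559 ± 0.0732 to 4.25 ± 0.706 CPM, Ifi44 from 0.984 ± 0.221 to 6.77 ± 1.84 CPM and Mx1, an antiviral GTPase, from 0.175 ± 0.0919 to 2.27 ± 0.432 CPM. Stat2, which carries the interferon signal, rose 1.29-fold and was not called in females alone (adjusted p = 0.0622). Unlike most glial lists, the 4 transgenic libraries scored alike, at 1.8, 1.56, 1.8 and 1.89 on the log2 scale, and replicate 2, the highest for many microglial lists, was the lowest here.

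Promoter letters of these genes were read from RefSeq sequence of GRCm38.p6, 250 bases before to 50 after the annotated start. The 11 motifs were searched on both strands, N stands for any base, and a match describes letters, not binding. The core of the interferon-stimulated response element, GAAA repeated after any 2 bases, was present in the windows of 10 of the 17 interferon list genes with a window (58.8%), of 3.55% of all 10875 tested genes with one and of 2.76% of those not called. Shown 5′ to 3′ along the gene, with 30 bases on each side where they precede the start and the match in capitals (reverse complement where it lies on the other strand), are the 4 list genes with the largest rise among those with the match before the start: Oas1a (chr5:120907526-120907569, minus strand), the tetherin gene Bst2 (chr8:71537557-71537626, minus strand), the antiviral enzyme gene Rsad2 (chr12:26456533-26456602, minus strand) and Ifit1 (chr19:34640774-34640843, plus strand), which rose 7.48-fold, 6.92-fold, 3.75-fold and 3.32-fold.
Oas1a: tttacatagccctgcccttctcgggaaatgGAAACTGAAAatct
Bst2: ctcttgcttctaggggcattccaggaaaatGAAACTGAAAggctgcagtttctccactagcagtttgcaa
Rsad2: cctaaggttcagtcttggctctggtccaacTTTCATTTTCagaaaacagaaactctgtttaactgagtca
Ifit1: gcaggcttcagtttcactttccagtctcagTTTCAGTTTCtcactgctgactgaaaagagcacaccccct

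Over all genes called higher by over 4-fold, 51 of the 507 with a window (10.1%) held GAGGAAGT, a site of PU.1, the factor that sets myeloid fate, against 3.49% of all tested genes, 3.31% of those not called and 1.86% of those lower by over 2-fold. TGACTCA, a site of AP-1, the dimer of Fos and Jun proteins, was in 10.3% of them, 4.59% of all and 4.87% of those lower by over 2-fold. The windows of the 4-fold class and of the interferon list were less rich in G and C, at medians of 54.3% and 52.3% against 60.7% over all tested genes. The share this alone would give was not tested. For each motif 4 holders on the lists, higher by over 4-fold and with a match before the start, are shown in the same way. They were taken in falling order of CPM in cWT_SOD1 after the genes of a whole chromosome were left out. A holder with a higher CPM may therefore be missing. For GAGGAAGT they are Spp1, a secreted phosphoprotein (chr5:104434968-104435035, plus strand), Ctsc, a lysosomal protease (chr7:88277904-88277971, plus strand), Bcl2a1b, a survival factor (chr9:89199095-89199162, plus strand), and Pycard, the inflammasome adaptor (chr7:127993874-127993941, minus strand), which rose 5.85-fold, 7.12-fold, 23.8-fold and 7.41-fold.
Spp1: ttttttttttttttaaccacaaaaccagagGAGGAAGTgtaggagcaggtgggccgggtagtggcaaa
Ctsc: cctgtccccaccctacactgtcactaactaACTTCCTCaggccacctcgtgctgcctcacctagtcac
Bcl2a1b: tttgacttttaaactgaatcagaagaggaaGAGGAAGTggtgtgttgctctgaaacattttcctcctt
Pycard: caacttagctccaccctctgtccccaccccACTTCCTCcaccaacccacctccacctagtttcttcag

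For TGACTCA they are Mt2 (chr8:94172509-94172575, plus strand), Igfbp2, a binding protein of insulin-like growth factors (chr1:72825318-72825384, plus strand), the lysosomal membrane glycoprotein Cd68 (chr11:69666171-69666224, minus strand) and the integrin Itgax (chr7:128129464-128129530, plus strand). They rose 7.15-fold, 5.62-fold, 30.5-fold and 209-fold in the order named.
Mt2: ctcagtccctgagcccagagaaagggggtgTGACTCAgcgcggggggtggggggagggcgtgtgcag
Igfbp2: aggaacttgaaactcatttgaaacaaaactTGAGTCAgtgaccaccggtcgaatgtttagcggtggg
Cd68: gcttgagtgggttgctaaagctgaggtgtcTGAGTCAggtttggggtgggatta
Itgax: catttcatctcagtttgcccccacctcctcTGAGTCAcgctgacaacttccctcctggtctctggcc

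**Figure D4:**
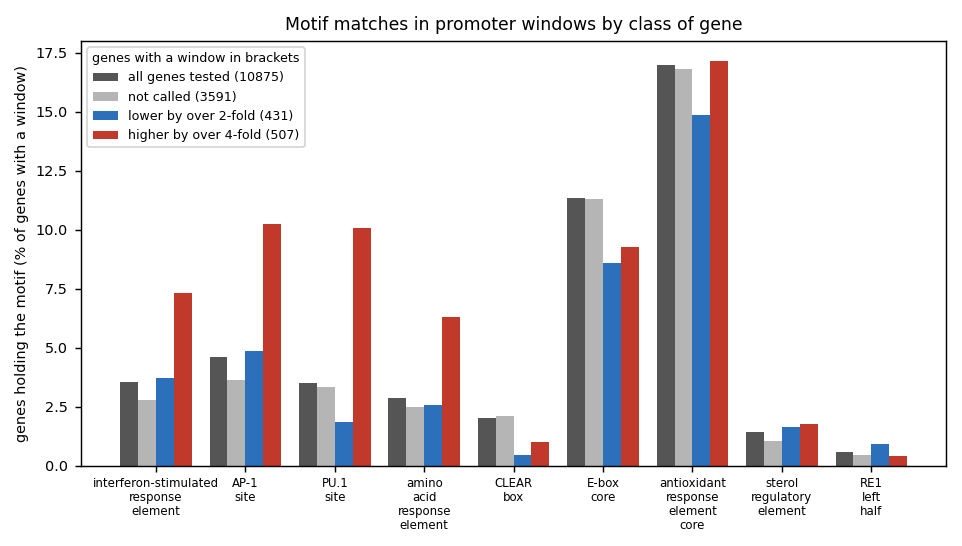
Bars give the percentage of genes whose promoter window holds a motif (vertical, from 0), for 9 of the 11 motifs searched and 4 classes of gene, with the number of genes with a window in brackets. The class higher by over 4-fold (red) stands above all tested genes for the interferon element, AP-1, PU.1 and the amino acid response element, while for the antioxidant element core it stands at 17.2% against 17%. This class stands below all tested genes for the CLEAR box, TCACGTGA (0.99% against 2.0%), and the E-box core (9.27% against 11.35%). Not drawn are the most common motifs, where it also stands below: the metal response element core (54.24% against 64.54%) and the CCAAT box (36.09% against 42.58%).

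Genes of cell death rose in most cases. Of 18 genes of necroptosis and pyroptosis 16 rose, with Gsdmd, which forms the pore of pyroptosis, going from 2.57 ± 0.542 to 11.4 ± 2.39 CPM, the necroptosis kinase gene Ripk3 from 0.208 ± 0.102 to 1.18 ± 0.243 CPM and Pycard rising 7.41-fold. Those that fell were Dfna5, a gasdermin (1.47-fold), and the deubiquitinase Cyld (1.16-fold), whose call was lost in males (adjusted p = 0.0562). In the Bcl2 family 13 of 19 rose and 3 fell. Bmf, a sensor that promotes death, rose from 3.77 ± 0.985 to 15.8 ± 5.43 CPM, while the survival gene Bcl2l2, abundant in neurons, fell 1.41-fold and Bnip3, a mitochondrial member, 1.52-fold. The fall of Bok, 1.21-fold, lost its call in 11 alternatives, among them without any 1 of cWT replicates 2 and 4 (−0.21 (adjusted p = 0.0987) for the latter) and cWT_SOD1 replicates 1, 3 and 4. Bcl2a1a, Bcl2a1b and Bcl2a1d, near-identical copies made by leukocytes, rose, and their separate values are uncertain.

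Lysosomal genes rose unevenly. Of 16 cathepsin and cystatin genes 14 rose. Ctsd, the aspartic protease (chromosome 7, 149561821 to 149573775), read 493, 512, 482 and 548 CPM in cWT and 3163, 6131, 5676 and 5100 CPM in cWT_SOD1 (log2 fold change 3.3, SE 0.14, adjusted p = 1.33e-11), and Ctss 80.8, 84.7, 81.8 and 105 CPM in cWT and 636, 1054, 1135 and 885 CPM in cWT_SOD1 (log2 fold change 3.4, SE 0.14, adjusted p = 1.33e-11). Replicate 1 was again the lowest of the transgenic group, at several times the cWT level. Cstb, a cytosolic inhibitor, rose 1.95-fold and Ctsf 1.15-fold, while Ctsk, the collagen-degrading cathepsin, stood at −0.33 (adjusted p = 0.0699) and passed without cWT replicate 2 (−0.44 (adjusted p = 0.0148)). Of 38 hydrolase and membrane genes 33 rose and 4 fell. Cd68 rose from 5.53 ± 1.17 to 169 ± 46.8 CPM. The members that fell were Ids, the sulfatase of heparan sulfate (1.51-fold), the glucosidase Gaa (1.2-fold), the calcium channel Mcoln1 (1.19-fold) and the sialidase Neu1 (1.12-fold). Mcoln1 and Neu1 lost their calls in females alone.

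The vacuolar proton pump, which acidifies lysosomes and loads synaptic vesicles, split by isoform. Of 19 subunit genes tested, 11 fell and 5 rose. Those that fell included Atp6v1g2 and Atp6v0a1, isoforms of neurons (1.9-fold and 1.52-fold), and the abundant Atp6v1b2 (1.65-fold, from 836 ± 30.2 to 507 ± 66.7 CPM) and Atp6v1a (1.45-fold). Those that rose were Tcirg1, the a3 isoform of macrophages and osteoclasts (3.24-fold, from 18.1 ± 2.21 to 58.7 ± 10.5 CPM), Atp6v0e (2.67-fold), Atp6v0a2 (1.55-fold), Atp6v1g1 (1.27-fold, not called in males) and Atp6v0d2, the d2 isoform of macrophages, with 0 counts in cWT and 88, 412, 375 and 250 in cWT_SOD1. Set against 3 counts assumed for the whole cWT group, Atp6v0d2 was 409.9-fold higher. That size rests on the assumed counts, leaves out the spread between libraries and is no lower limit. TCACGTGA, the palindromic core of the motif bound by the lysosomal regulator TFEB, was in the windows of 3 of 13 pump genes and 2.0% of all tested genes. Its holders were Atp6v0e, which rose, and Atp6v1a and Atp6v0d1, which fell. Atp6v0c, the subunit of the proton-carrying ring, had 0 to 2 counts per library against 234 to 456 FPKM, one of 19 genes with a mean of over 50 FPKM and under 20 counts, and was not tested.

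Autophagy genes moved by little. Of 41 tested 24 fell and 7 rose, none by over 2-fold, with a median of −0.18, and 4 rose in males alone. Atg9b, a scramblase of the forming membrane, fell 1.68-fold and Atg4d, a protease that processes the Atg8 proteins, 1.53-fold. Gabarap, an Atg8 protein, rose from 135 ± 12.9 to 199.6 ± 16.2 CPM, Atg4a 1.83-fold, Wipi1, which binds the growing membrane, 1.37-fold and Ulk2 1.16-fold. Atg14 rose 1.27-fold with the call lost in males. The receptor gene Sqstm1, which encodes p62, read 510, 492, 506 and 544 CPM in cWT and 517, 567, 590.5 and 559 CPM in cWT_SOD1. Its 1.09-fold difference was called (adjusted p = 0.0453), but not with the replicate block (adjusted p = 0.0628), limma-voom, no filter, the 8 libraries alone or either sex alone, or when some single libraries were left out. Calcoco1 rose 1.11-fold and likewise lost its call, among others without any 1 of cWT replicates 3 and 4 and cWT_SOD1 replicates 2 and 3, with cWT replicate 3 left out at 0.11 (adjusted p = 0.128).

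Most lipid genes rose, as Apoe did. Of 34 genes of lipid droplets, fatty acids and apolipoproteins 26 rose and 3 fell (5 without cWT replicate 1 or cWT_SOD1 replicate 1). Lpl, the lipase that frees fatty acids from lipoproteins, read 4.86, 5.14, 5.94 and 7.92 CPM in cWT and 147, 202, 166 and 165 CPM in cWT_SOD1 (log2 fold change 4.83, SE 0.22, adjusted p = 1.40e-11). Replicate 2 stood highest and no library came near the other group. Apoc4, beside Apoe on the chromosome, had 0 counts in cWT and 9, 104, 94 and 26 in cWT_SOD1. Against the same assumed 3 counts it was 84.9-fold higher, again no lower limit. Pnpla3, a lipid droplet hydrolase, fell 1.51-fold, not called in females (adjusted p = 0.625), and Acsl1, which activates fatty acids, 1.33-fold. Of 15 iron genes 10 rose and Tfrc fell. Ftl1, the ferritin light chain, rose 4.0-fold, from 77.1 ± 6.49 to 308 ± 69.2 CPM, Hmox1, which frees iron from heme, 10.5-fold and Slc11a1, a metal transporter of phagocytes, 18.3-fold.

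Respiratory chain genes fell, and genes of sugar breakdown moved both ways. Of 52 nuclear respiratory chain genes 43 fell and 1 rose, all by under 2-fold, with a median of −0.39. Ndufb8 of complex I fell 1.65-fold, from 171 ± 15.5 to 104 ± 13.7 CPM, and Atp5g1 of the ATP synthase 1.62-fold. Sdhc of complex II was the member that rose, by 1.17-fold, and was not called in females alone (adjusted p = 0.135). Of 24 glycolysis and pentose phosphate genes 11 fell and 7 rose. Eno2, the neuronal enolase, fell 2.01-fold, from 1119 ± 44.3 to 557 ± 102 CPM, Pkm2 1.58-fold and Ldhb 1.41-fold, while the hexokinases Hk2 and Hk3 rose 5.44-fold and 12-fold, the lactate exporter Slc16a3 4.5-fold, Ldha 1.52-fold and G6pdx and Pgd of the pentose phosphate path 1.4-fold and 1.41-fold. Gapdh was not read from counts, which were 36 to 62 per library against 314 to 463 FPKM.

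Most ribosomal protein genes rose. Of 54 ribosomal protein genes 39 rose and none fell, by a median of 1.37-fold, and on log2(FPKM + 0.1) limma called 53 of 54 higher. Rplp0, a stalk protein of the large subunit, read 95.3, 83.7, 90.4 and 76.4 CPM in cWT and 104, 211, 203 and 178 CPM in cWT_SOD1 (log2 fold change 1.01, SE 0.22, adjusted p = 7.06e-04). Replicate 1 was just above the highest cWT library and the other 3 well above it. Counts of these genes are low for their abundance, and these genes have many processed copies in the genome: Rpl10a had 39 to 128 counts per library against 64.7 to 143 FPKM. Rpl15, Rpl3 and Rpl37, near 0 on counts (0.022, 0.08 and 0.094), were higher on FPKM by 0.22, 0.24 and 0.34, and Rpl3 passed on counts without cWT_SOD1 replicate 3 (0.24 (adjusted p = 0.00606)). Of 31 constitutive proteasome genes 13 fell and 2 rose, with 48.4% called against 66.3% and 41.9% lower against 33.1% of all genes, and 2 fell in males alone. Psmc5, an ATPase of the cap, fell most (1.56-fold). Psmd8 rose 1.2-fold but was not called in females alone, and Psma4, at 1.1-fold (adjusted p = 0.0493), lost its call in most alternatives.

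Stress pathways rose selectively. Of 26 target genes of the integrated stress response, in which the factor Atf4 is translated more, 20 rose and 1 fell. Nupr1, a stress-induced chromatin protein (chromosome 7, 133766760 to 133768984), read 4.1, 3.43, 3.72 and 3.66 CPM in cWT and 37.6, 103, 139 and 63.6 CPM in cWT_SOD1 (log2 fold change 4.53, SE 0.35, adjusted p = 4.26e-09). Every transgenic library lay above every cWT library by over 9 times. Trib3, a pseudokinase, rose 11.2-fold, from 0.554 ± 0.281 to 6.2 ± 1.41 CPM, Gdf15, a secreted stress signal, 32.4-fold and Eif4ebp1, a brake on translation, 7.33-fold. Asns, asparagine synthetase, a classical target, fell 1.52-fold, from 108 ± 3.62 to 71 ± 9.07 CPM, and Slc7a11 and Vldlr stood at −0.26 and −0.24. Both of these passed as lower in some alternatives, among them without cWT_SOD1 replicate 1 (adjusted p = 0.0332 and 0.00595), where the count of lower members was 3.

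TGATGNAA, the core of the amino acid response element bound by Atf4 with its partners, was in the windows of 7 of 22 genes of this list (31.8%) and of 2.85% of all tested genes. The 7 holders were Nupr1, Trib3, Fgf21 and Chac1, which rose, Asns, which fell, and Slc7a11 and Vldlr. With the match in capitals, on the other strand in each case, the windows with a match before the start and the largest log2 fold changes are those of Nupr1 (chr7:126625543-126625610, minus strand), Fgf21, a secreted metabolic factor that rose 5.65-fold (chr7:45615592-45615659, minus strand), Chac1, a glutathione-degrading enzyme that rose 1.32-fold (chr2:119351019-119351086, plus strand), and Vldlr (chr19:27216790-27216857, plus strand).
Nupr1: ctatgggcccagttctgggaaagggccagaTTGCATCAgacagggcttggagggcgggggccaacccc
Fgf21: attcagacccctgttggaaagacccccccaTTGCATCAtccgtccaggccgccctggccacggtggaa
Chac1: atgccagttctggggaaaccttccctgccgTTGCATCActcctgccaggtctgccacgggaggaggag
Vldlr: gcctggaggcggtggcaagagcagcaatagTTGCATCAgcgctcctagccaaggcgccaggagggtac

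Of 24 genes of the endoplasmic reticulum 16 rose and Herpud1 fell 1.14-fold, with 7 higher in males alone. Of this list 70.8% were called against 66.3% of all genes, and 66.7% were higher against 33.2%. Edem1, which sends misfolded proteins to degradation, rose 2.36-fold, Pdia4, a disulfide isomerase, 1.87-fold and Dnajc3 1.69-fold. The fall of Herpud1 was not called without cWT replicate 2 or cWT_SOD1 replicate 2 (−0.15 in both) or in females. Cytosolic chaperones moved the other way, with 11 of 21 lower and 5 higher. The co-chaperones Hsph1 and Stip1 fell 1.63-fold and 1.63-fold and Dnajb1 1.43-fold, whereas the 5 that rose were all small heat shock proteins: Hspb1 above, Hspb6 (4.09-fold, from 9.63 ± 1.31 to 39.4 ± 3.24 CPM), Hspb8 (1.8-fold), Cryab (1.58-fold) and Hspb2 (2.02-fold, not called in males). Of 27 metallothionein and Nrf2 target genes 15 rose and 4 fell, with 70.4% called against 66.3% of all genes and 55.6% higher against 33.2%. Mt1 read 235, 260.1, 217 and 231 CPM in cWT and 1009.7, 1978, 2122 and 1475 CPM in cWT_SOD1 (log2 fold change 2.8, SE 0.17, adjusted p = 1.14e-09), and no transgenic library was within the cWT range. Prdx6, a peroxide-reducing enzyme, rose 6.19-fold, from 274 ± 14.4 to 1699 ± 291 CPM. The members that fell were the mitochondrial Sod2 (1.76-fold), Gsta4 (1.37-fold) and Gclm and Gclc, the 2 subunits of the enzyme that starts glutathione synthesis (1.22-fold and 1.12-fold), with Gclc not called in males alone.

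Of 31 genes linked to amyotrophic lateral sclerosis 15 fell and 7 rose, so that 71% were called against 66.3% of all genes. Unc13a, a priming factor of synaptic vesicles, fell 2.09-fold, from 181 ± 15.6 to 86.6 ± 13.1 CPM, Kif5a, an axonal kinesin, 2.3-fold, from 2563 ± 93 to 1116 ± 182 CPM, and Stmn2, a tubulin-binding protein of growing axons, 1.88-fold, from 581 ± 27.8 to 309 ± 41 CPM. Beside Grn, which microglia make, those that rose were Ang, at 0.808 ± 0.452 to 4.65 ± 2.56 CPM, Pfn1, which binds actin (1.53-fold), and the RNA-binding proteins Taf15 (1.5-fold), Hnrnpa2b1 (1.26-fold) and Ewsr1 (1.17-fold), with Sqstm1 as above. Ang was not called in males alone, and Ang belongs to a family of similar copies.

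The extracellular matrix shifted in composition. Of 33 collagen and matrix genes 23 rose and 6 fell. Those that fell were mainly parts of perineuronal nets, the coats of fast-firing neurons: Acan, the core proteoglycan, read 43.3, 39.9, 39.7 and 31.4 CPM in cWT and 16.5, 9.56, 11.3 and 17 CPM in cWT_SOD1 (log2 fold change −1.51, SE 0.14, adjusted p = 6.28e-08), without overlap, and the link proteins Hapln1 and Hapln4 fell 2.8-fold and 2.68-fold, Bcan 1.73-fold and Ncan 1.26-fold, the last not called in males. Sparcl1 of astrocytes fell 1.29-fold. Those that rose included Cd44, the hyaluronan receptor (10.1-fold), Col12a1 (4.7-fold, from 19.2 ± 3.12 to 90.4 ± 31.6 CPM) and Has2, which makes hyaluronan, at 0.325 ± 0.181 to 1.47 ± 0.172 CPM. Of 21 metalloproteinase and Timp genes 15 rose and 6 fell, so that each member passed the test. Mmp19 and Adam8, proteases of myeloid cells, rose 14.2-fold and 8.7-fold. Beside Mmp9, the membrane-type proteases Mmp17, Mmp15 and Mmp24 fell 1.78-fold, 1.72-fold and 1.35-fold, Adamts4 fell 1.49-fold, and Mmp16 at −0.20 lost its call on FPKM and without any 1 of cWT replicates 1 and 3 and cWT_SOD1 replicates 1 and 2 (−0.20 to −0.15 in these 4), among others.

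Growth factors and their receptors moved both ways. Of 12 insulin-like growth factor genes 6 rose and none fell, with 50% called against 66.3% of all genes. Igf1, which microglia release, read 8.55, 8.74, 10.2 and 11.8 CPM in cWT and 17.6, 49.4, 43.5 and 58.6 CPM in cWT_SOD1 (log2 fold change 2.1, SE 0.24, adjusted p = 7.39e-07), and the binding proteins Igfbp2 and Igfbp5 rose 5.62-fold and 4.71-fold, from 43.5 ± 3.32 to 244 ± 105 CPM and 99.5 ± 11 to 469 ± 111 CPM. The receptor Igf1r (0.11) and Igf2 (−0.14) were not called. Of 25 neurotrophic factor and receptor genes 13 rose and 10 fell (6 in males alone). The ligands Hgf and Fgf2 rose 11.3-fold and 9.87-fold, from 1.22 ± 0.0549 to 13.9 ± 1.47 CPM and 1.98 ± 0.341 to 19.6 ± 3.81 CPM, while Vegfa fell 2.04-fold, from 70.2 ± 5.45 to 34.3 ± 3.43 CPM, and Vegfb 1.44-fold. Receptors of neurons fell by less, with Cntfr at 1.34-fold and Lifr at 1.34-fold.

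Of 26 cell cycle genes 23 rose and Ccne1, cyclin E1, fell 1.81-fold, from 19.2 ± 0.507 to 10.6 ± 1.8 CPM. Mki67, a marker of dividing cells, read 1.43, 0.971, 1.56 and 1.99 CPM in cWT and 17, 15.5, 16.6 and 16 CPM in cWT_SOD1 (log2 fold change 3.44, SE 0.26, adjusted p = 2.45e-09), and the 4 transgenic libraries were close to one another. The scores of the list, 1.32, 1.37, 1.28 and 1.34, were likewise even. Of 19 annexin and S100 genes 14 rose and 2 fell. S100a4, S100a6 and S100a11, calcium-binding proteins of migrating cells and reactive glia, rose 18.5-fold, 13-fold and 8.5-fold, and Anxa3, of microglia, 9.98-fold, from 13 ± 1.33 to 129 ± 37.2 CPM. Anxa6, of neurons and other cells, fell 1.66-fold and S100b is given above.

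Most Hox genes, which set position along the body axis, fell. Of 23 Hox genes 20 fell and none rose, with a median of −0.46 (13 fell in females alone). Hoxc10, of the lumbar segments, read 86.7, 85.8, 87.4 and 83.9 CPM in cWT and 61, 39.4, 39 and 50.9 CPM in cWT_SOD1 (log2 fold change −0.86, SE 0.10, adjusted p = 1.25e-06), without overlap, and Hoxd10 fell 1.78-fold. Of 21 synaptic adhesion and protocadherin genes 12 fell and 4 rose. Within the clusters Pcdha1, Pcdha2, Pcdha7 and Pcdhac2 fell 2.96-fold, 2.44-fold, 2.09-fold and 2.22-fold, while Pcdhgc5 and Pcdhgc3 rose 3.79-fold and 2.38-fold, from 11.1 ± 1.89 to 42.1 ± 6.94 CPM and 52.6 ± 1.35 to 125 ± 22.8 CPM. Their transcripts share 3′ exons, so reads may be shared among them. Of 14 long noncoding RNAs 6 fell and 4 rose, with 71.4% called against 66.3% of all genes. The neuronal Rian and Peg13 were 1.61-fold and 1.98-fold lower, and the imprinted H19 went from 0.403 ± 0.196 to 5.2 ± 1.91 CPM. Of 18 clock genes 6 rose and 5 fell (2 in females and 3 in males alone), 61.1% called against 66.3% of all genes. Nfil3 rose 2.42-fold and Per1 1.59-fold, and Nr1d2 fell 1.47-fold, the last not called in males.

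Some abundant genes hardly moved. By the rule of a mean of at least 100 CPM and an interval closest to 0, these were Gapvd1, Pdxdc1, Psmd3, Usp47, Adnp, Trappc10, 4833439L19Rik, Nbr1, Mtmr3 and Ube2l3. Ube2l3, a ubiquitin-conjugating enzyme, read 149, 149, 152 and 151 CPM in cWT and 152, 147, 144 and 152 CPM in cWT_SOD1, with a log2 fold change of −0.015 and a 95% interval −0.091 to 0.061. Nbr1, a receptor of selective autophagy, read 249.8, 249, 248 and 242 CPM in cWT and 244, 255, 249 and 245 CPM in cWT_SOD1 (95% interval −0.079 to 0.09), and Usp47, a deubiquitinase, 147, 144, 143 and 147 CPM in cWT and 149.6, 141, 145 and 143 CPM in cWT_SOD1 (95% interval −0.084 to 0.072). For each of these 3 the groups overlapped and the interval left out changes of over 1.1-fold. At the other end, some genes varied widely within a group. Neat1, a nuclear noncoding RNA, read 198, 30.6, 149 and 226 CPM in cWT and 78.6, 484, 666 and 507 CPM in cWT_SOD1, and the test did not pass (log2 fold change 1.52, SE 0.68, adjusted p = 0.062), although it did without cWT_SOD1 replicate 1 (1.88 (adjusted p = 0.0141)) or without cKO_SOD1 replicate 4. Plin4, a lipid droplet coat protein, read 46.5, 54.1, 5.89 and 15.8 CPM in cWT and 41, 384, 358 and 322 CPM in cWT_SOD1. Replicate 1 lay among the cWT values and the other 3 far above them (log2 fold change 3.17, SE 0.76, adjusted p = 0.00201), and the call was lost in males alone. Lcn2, lipocalin 2 of reactive astrocytes, ran from 4.86 to 55.3 CPM across the transgenic libraries, all above the 1.0 to 2.05 CPM of cWT (log2 fold change 4.21, SE 0.60, adjusted p = 3.23e-06). Ctse, Trim30d and Serpina3h were as uneven, the last 2 not called in males alone, with 1 library, cWT_SOD1 replicate 2, at 45.9 CPM of Ctse against 3.44, 7.42 and 4.31 in the others, without which the log2 fold change of Ctse was 5.3 in place of 6.89.

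The 4 transgenic animals kept an order across lists. A list score averages, over the genes of a list, the difference in log2 CPM from the cWT mean, and 49 lists had a mean transgenic score over 0.5 in size. Replicate 1 was nearest to 0 in 39 of the 49, and replicate 3 or 2 farthest in 31 and 16. Scores of replicates 1 to 4 were 3.18, 3.85, 3.81 and 3.63 for disease-associated microglia, 3.13, 3.64, 3.93 and 3.3 for reactive astrocytes, 2.74, 3.62, 3.76 and 3.11 for the phagocyte oxidase and −0.76, −1.24, −1.3 and −0.87 for transmitter release. Lists without that order included interferon-stimulated and cell cycle genes, given above, and chemokines, at 2.14, 2.08, 2.21 and 2.06. The lists share libraries and, in part, cell types, so their order is one description of 4 animals and not a repeated finding. Replicate 1 also had the largest TMM factor of the 8 libraries, 1.05 against 0.976 to 1.01.

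**Figure D5:**
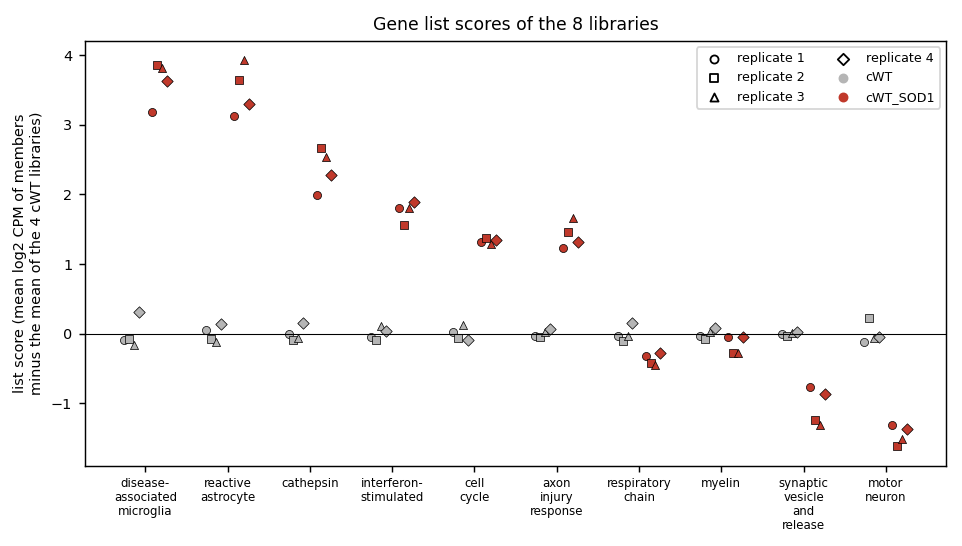
List scores (vertical, mean log2 CPM of members minus the cWT mean) of 10 lists in the 8 libraries, grey for cWT and red for cWT_SOD1, with a marker shape per replicate. Replicate 1 (circle) is the transgenic library nearest to 0 for disease-associated microglia, reactive astrocytes, cathepsins and transmitter release, while the interferon-stimulated and cell cycle scores of the 4 transgenic libraries lie close together.

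The same contrast in mice labelled Atg7 cKO, cKO_SOD1 against cKO, uses other libraries and called 1123 genes (7.28%), 740 higher (4.8%) and 383 lower (2.48%). The difference between the 2 contrasts was itself tested and called for 6949 genes (45%), 3367 higher and 3582 lower in the cWT contrast. Among the genes named here by rule, the 10 with the smallest p of the difference all rose more in cWT. Most genes were named by their change in the cWT contrast, which itself favours a larger change there, so the shared direction is no separate result. Dhrs1 changed 7.51-fold in cWT and 1.99-fold in cKO, a difference of 1.92 on the log2 scale (SE 0.10, adjusted p = 4.60e-09). Its CPM were 74.1, 69.3, 78.6 and 81.2 in cKO and 137, 152, 160.2 and 154 in cKO_SOD1, the latter all below the cWT_SOD1 range. The others were Add3 (0.99), Cd34 (2.42), Plscr2 (1.77), Casp12 (2.45), Cd9 (1.67), Hmox1 (2.77), Prdx6 (1.88), Serpina3n (3.0) and S100a10 (1.27), at adjusted p up to 2.01e-07. The motor neuron list fell in 14 of 16 cases in both contrasts, with medians of −1.74 and −1.18, whereas medians for disease-associated microglia were 3.16 and 0.95, for interferon-stimulated genes 1.73 and 0.98 and for transmitter release −1.05 and −0.16. Of these lists' members, the difference was called for 9 of 16, 24 of 25, 15 of 25 and 18 of 20.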

How the data were processed

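RNA of lumbar spinal cord was sequenced from 16 mice in 4 groups of 4 (cWT, cWT_SOD1, cKO, cKO_SOD1), grouped by their genotype labels. The authors deposited a table of raw counts per gene symbol and tables of FPKM, which are counts scaled by transcript length and library size. The tools TopHat2 2.0.4, Cufflinks 2.0.2 and bcl2fastq 1.8.4 and the mm9 build are named, without their roles, per the submitters' processing notes. The counting tool, its use of strand and the annotation were not given in these sources, and a gene cannot be told apart from an antisense partner. Symbols present in the FPKM tables gave the mm9 coordinates.

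From the counts, 15426 of 23284 symbols passed edgeR's filterByExpr. They were fitted with edgeR 4.0.16 (R 4.3.3) by quasi-likelihood, with TMM factors and a mean per group over all 16 libraries, which share 1 estimate of the spread. Every adjusted p in the text is from this fit by Benjamini-Hochberg over all tested genes, at a threshold of 0.05, unless an alternative is named. Fold changes in the text are sizes, with the direction in words. On simulated counts with this design, in which only a small share of genes was changed, known 2-fold changes were recovered for 82% of the genes given them. Far more genes were called in the data, which moves the cutoff on p, so this share does not carry over to them. Alternatives were RLE and upper-quartile factors, no filter, DESeq2 1.42.0, limma-voom (limma 3.58.1) weighted by group, the 8 libraries alone, sex as a covariate, each sex alone, a replicate block, limma on log2(FPKM + 0.1) and log2(FPKM + 1), and each library left out. Sex, read from Xist and 4 Y-linked genes, was used only for such splits.

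The 71 gene lists hold 1425 genes, of which 1314 were tested. The comparison, its members and the lists were chosen with earlier results of these data known, so counts over lists are descriptions. Each is to be read beside the 33.2% of all tested genes called higher and the 33.1% called lower. Genes were named by rule: Atg7 and Sod1, the 12 largest gains and losses of FPKM among called genes without overlap, the 10 smallest p in each direction, the 10 abundant genes closest to 0, the 8 most variable genes of each group, and of each list all members or its 4 highest and 4 lowest changes and those called against its median. Cd163, Gsdmd, Klf6, Ripk3, Atp6v0d1 and the genes named only beside a promoter (Chac1, Ctsc, Fgf21, Ifit1, Rsad2, Spp1) were named after their values were seen. Some genes within the rule are not reported here. Promoters were read for 10875 tested genes (13909 windows) from RefSeq on GRCm38.p6, matched by symbol. Figures were drawn with Python 3.11.15 and matplotlib 3.10.9.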

Additional observations from a re-analysis of the deposited data

Results flagged for a closer look

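In groups of 4, a library was noted where its gap to the nearest of the others as a share of the range passed Dixon's 95% critical value. This held for 41 of 774 sets of 4 CPM values of the genes named above (5.3%), and chance gives about 1 in 20. The libraries did not share these evenly: cWT replicate 4 was noted most often, mainly as the highest of its group. cWT replicate 1 lay below the other 3 libraries in CPM for Vegfb at 66.8 (others 71.4 to 72.2). cWT replicate 2 lay above the other 3 libraries in CPM for Calca at 37.5 (others 23.1 to 24.9), Cd4 at 0.457 (others 0.111 to 0.154), Kcnj14 at 29.97 (others 23.9 to 24.4) and Trib3 at 0.971 (others 0.358 to 0.444). cWT replicate 2 lay below the other 3 libraries in CPM for Cd180 at 1.08 (others 2.71 to 2.78), Egr2 at 0.285 (others 0.717 to 0.778), Ifit1 at 4.11 (others 5.21 to 5.39) and Pdxdc1 at 147 (others 151 to 151). cWT replicate 3 lay above the other 3 libraries in CPM for Igfbp5 at 116 (others 92.3 to 96.3). cWT replicate 3 lay below the other 3 libraries in CPM for Hk2 at 4.0 (others 4.97 to 5.14) and Stat3 at 112 (others 116 to 117). cWT replicate 4 lay above the other 3 libraries in CPM for Atp6v1a at 763 (others 688 to 691), Cacna2d4 at 2.55 (others 1.54 to 1.59), Ctss at 105 (others 80.8 to 84.7), Dhrs1 at 79.6 (others 72.2 to 73.2) and Ebp at 27.6 (others 23.6 to 24). cWT replicate 4 also lay above the other 3 libraries in CPM for Egr4 at 3.1 (others 1.08 to 1.31), Fcgr3 at 13.5 (others 9.11 to 9.63), Hk3 at 1.99 (others 1.11 to 1.23), Hspb8 at 66.4 (others 61.9 to 62.5) and Icam1 at 4.15 (others 2.56 to 2.63). cWT replicate 4 also lay above the other 3 libraries in CPM for Il33 at 247 (others 196 to 201), Ndufb8 at 195 (others 163 to 164), Psma4 at 48.2 (others 41.5 to 42) and S100a6 at 24.4 (others 14.1 to 15.3). cWT replicate 4 lay below the other 3 libraries in CPM for Atg4a at 3.27 (others 3.48 to 3.5). cWT_SOD1 replicate 1 lay above the other 3 libraries in CPM for Dfna5 at 14.5 (others 12.5 to 12.8), Kcns1 at 35.4 (others 23.4 to 23.5) and Kdr at 8.24 (others 4.02 to 4.51). cWT_SOD1 replicate 1 lay below the other 3 libraries in CPM for Crh at 2.46 (others 3.58 to 3.75), Edem1 at 76.2 (others 93.8 to 96.9) and Stk32a at 72.3 (others 120.3 to 124). cWT_SOD1 replicate 2 lay above the other 3 libraries in CPM for Ctse at 45.9 (others 3.44 to 7.42) and Olig1 at 276 (others 239 to 245). cWT_SOD1 replicate 2 lay below the other 3 libraries in CPM for Cacna2d4 at 2.68 (others 3.12 to 3.14), Ebp at 21.2 (others 23.4 to 23.9) and Stat2 at 26.6 (others 34.8 to 36.1). cWT_SOD1 replicate 3 lay above the other 3 libraries in CPM for Bnip3 at 61.1 (others 53.5 to 53.8) and Gal at 14.6 (others 7.63 to 8.33). cWT_SOD1 replicate 3 lay below the other 3 libraries in CPM for Isl1 at 1.19 (others 1.62 to 1.66).

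The rise with the transgene was larger in cWT than in cKO mice, by the test of the difference given above, for the 10 genes of the named set with the smallest p of that difference. That set was named mostly by changes in the cWT contrast, which favours this direction. On the log2 scale it was larger for Dhrs1 by 1.92, Add3 by 0.985, Cd34 by 2.42, Plscr2 by 1.77 and Casp12 by 2.45, and for Cd9 by 1.67, Hmox1 by 2.77, Prdx6 by 1.88, Serpina3n by 3.0 and S100a10 by 1.27.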

How the results depend on the processing

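Over 29 other settings of the fit, from 7595 genes (males alone) to 10708 (FPKM without a filter) were called against 10221. Leaving out each of the 16 libraries in turn gave 9541 to 10416. The calls shared with the main ones in the same direction numbered 9994 with DESeq2, 9369 with only the 8 libraries, 8042 of 8405 in females and 7371 of 7595 in males. Of 474 called genes in the set named by rule, 382 kept their call and direction in every setting, 28 lost the call in at least 1 left-out library and 91 in at least 1 other setting. Ciita turned from −0.22 to 0.4962 on FPKM without a filter, and the cause was not tested. For the difference between cWT and cKO, 6949 genes became 4616 in females and 2863 in males. Those higher in the cWT contrast became 1349 in males, and those lower 2269 in females and 1514 in males, in fits with fewer libraries. The replicate block called 10204 genes, 10063 shared. Deviations of same-numbered libraries correlated at 0.056, −0.12, −0.25 and 0.21, so the numbers were not used to pair the samples, and 1 of 4 numbers correlated best with itself. On FPKM 55.5% to 56.3% of calls were higher, against 50.1% on counts. A pseudocount of 1 FPKM shrinks the changes of low genes by construction.

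Each group holds 4 libraries. Of genes under 1 CPM 41.7% were called against 81.8% of those over 100 CPM, which limits what can be said of scarce genes at this depth.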
